A study of Mus musculus with 2 samples.

Results

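The 85 histone genes of the table, out of 27998 genes, were described in cells of the adipocyte precursor sort with at least 2 UMIs of chosen cell-cycle genes and in the cells with fewer. Members were taken by symbol: 69 whose names begin with Hist1h, Hist2h, Hist3h or Hist4h, called replication-dependent here, and 16 whose names begin with H2af, H1f or H3f, called variant. The replication-dependent set held the testis members Hist1h1t, Hist1h2aa and Hist1h2ba, the pseudogene Hist1h2al and 2 gene identifiers under the symbol Hist2h2bb, and the variant set held the antisense transcript H3f3aos. Of the 85 members, 15 had no count in the kept cells, 11 of them replication-dependent and 4 variant. A further 52, of which 50 were replication-dependent, had between 1 and 291 counts and stayed under 10 CPM (UMI counts scaled to 1000000 per class) in each cell class, and 18 reached that level in a class.

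The cells were sorted from subcutaneous fat of wild-type pups aged 12 days, which had been nursed by foster dams whose milk fat was either high or low in its n-6/n-3 ratio of polyunsaturated fatty acids (PUFA). Each condition was captured once, as 1 droplet library of 3′ ends. The matrix marks its barcodes only with a library suffix, which no label ties to a diet, so the libraries are called 1 and 2, no diet is attached to either and no test between conditions was possible. The labels give 3000 sorted cells per condition and describe them both as fresh and as frozen and thawed, whereas the matrix held 3321 barcodes in library 1 and 3584 in library 2, and 17 barcode sequences occurred in both. The labels do not state how many pups or litters entered each library.

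Histones package DNA into nucleosomes, each built on a core of H2A, H2B, H3 and H4 and closed by a linker histone H1. Replication-dependent genes supply the bulk of these proteins while DNA is copied, and most of their messenger RNAs end in a stem-loop bound by Slbp in place of a poly(A) tail, although some of these genes can also make longer, polyadenylated messages. Variant genes such as H2afz and H3f3b are expressed through the cell cycle and in resting cells, carry introns in many cases and give polyadenylated messages. The libraries were primed on poly(A), so a histone message without a tail can be captured only poorly, and every level below is a level of captured molecules.

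Cells were placed in 3 classes by the unique molecular identifiers (UMIs, 1 per captured molecule) of 4 cell-cycle genes. Ccnb2/Cenpa cells, 148 in all with 70 in library 1 and 78 in library 2, had at least 2 UMIs of Ccnb2 or Cenpa, genes of G2 and mitosis, and fewer than 2 of Mki67 or Top2a. Mki67/Top2a cells, 215 with 87 in library 1 and 128 in library 2, had at least 2 UMIs of Mki67 or Top2a, which mark proliferating cells, and 128 of them also reached 2 UMIs of Ccnb2 or Cenpa. The other cells numbered 6522, 3150 and 3372 by library, of which 5396 had no UMI of the 4 genes, so cells at other points of the cell cycle can be among them. Median depth was 12308.5 UMIs per cell in Ccnb2/Cenpa cells, 16162 in Mki67/Top2a cells and 12430.5 in other cells. Levels are given as CPM, with exact Poisson intervals on sums and exact conditional intervals on ratios, all at 95% and all covering counting error only.

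The classes were checked on gene lists outside the 4 genes. A list of 19 S phase genes summed to 189 CPM in Ccnb2/Cenpa cells, 845 CPM in Mki67/Top2a cells and 177 CPM in other cells. A list of 15 genes of G2 and mitosis summed to 239 CPM, 1518 CPM and 30.8 CPM in the same order of classes. Of 10 precursor markers, such as Pdgfra and Cd34, none differed past 2-fold between any pair of classes. Markers of other cell types moved with the classes: the 6 endothelial markers summed to 354 CPM in Ccnb2/Cenpa cells, 350 CPM in Mki67/Top2a cells and 89.4 CPM in other cells, and the 8 immune markers to 307, 162 and 51.4 CPM. The 4 mature adipocyte markers, mainly Fabp4, which endothelial cells also express, summed to 1193, 1244 and 497 CPM, and the 4 mural markers to 75.9, 88.4 and 27.8 CPM. The 5 erythroid genes, mostly globins, differed between libraries more than between classes, with 17.4 CPM in library 2 and 973 CPM in library 1 for Ccnb2/Cenpa cells, 292 and 8994 CPM for Mki67/Top2a cells, and 104 and 4968 CPM for other cells. The 4 epithelial markers were at 0 in Mki67/Top2a cells and at 1 and 7 UMIs elsewhere. Leaving out the 14 Ccnb2/Cenpa cells, 26 Mki67/Top2a cells and 221 other cells with at least 5 immune or 5 endothelial or 20 erythroid UMIs changed the histone sums little. The log2 fold of the summed replication-dependent genes over other cells was then 2.67 in Ccnb2/Cenpa cells, against 2.58 with them, and 3.39 in Mki67/Top2a cells, against 3.36.

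Replication-dependent messages were scarce in other cells and higher in both cell-cycle classes, but through different genes. Summed over the 69 genes, they stood at 488 CPM in Ccnb2/Cenpa cells (454 in library 1 and 523 in library 2), 838 CPM in Mki67/Top2a cells (767 and 885) and 81.7 CPM in other cells (77.9 and 85.4). The values of the classes did not overlap between libraries. The log2 fold over other cells was 2.58 (interval 2.48 to 2.68) in Ccnb2/Cenpa cells and 3.36 (3.29 to 3.42) in Mki67/Top2a cells, that is 5.98-fold and 10.3-fold. The mean number of these UMIs per cell was 6.48 in Ccnb2/Cenpa cells, 13.8 in Mki67/Top2a cells and 1.002 in other cells.

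The summed fold of Mki67/Top2a cells rested largely on Hist1h2ap, which encodes a core H2A and held 65.6% of the replication-dependent UMIs in that class. In Ccnb2/Cenpa cells Hist1h2ap held 0.938% of them, while Hist1h1c and Hist1h2bc, which encode a linker H1 and a core H2B, together held 84.6%. In other cells that pair held 63.5% and Hist1h2ap 3.95%. Without Hist1h1c and Hist1h2bc the sum was 75.3 CPM in Ccnb2/Cenpa cells, 723 CPM in Mki67/Top2a cells and 29.8 CPM in other cells. Without the members that share their 3′ ends with other genes, Hist1h2ap among them, the order of the cell-cycle classes turned round: the log2 ratio of Ccnb2/Cenpa to Mki67/Top2a cells was 1.07, against -0.78 with all members, and the fold of Mki67/Top2a cells over other cells was 1.66 on the log2 scale.

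Variant messages were far more abundant in captured UMIs and moved less. Their sum was 4545 CPM in Ccnb2/Cenpa cells (4383 and 4707 by library), 6211 CPM in Mki67/Top2a cells (6061 and 6310) and 2925 CPM in other cells (2888 and 2961). The fold over other cells was 1.55 in Ccnb2/Cenpa cells and 2.12 in Mki67/Top2a cells. Replication-dependent genes thus gave 9.70% of all histone UMIs in Ccnb2/Cenpa cells, 11.9% in Mki67/Top2a cells and 2.72% in other cells.

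By histone family, different replication-dependent genes led in each cell-cycle class. Replication-dependent H2A genes summed to 33.1 CPM in Ccnb2/Cenpa cells, 615 CPM in Mki67/Top2a cells and 20.04 CPM in other cells. Replication-dependent H2B genes ran the other way between the cell-cycle classes, with 237 CPM in Ccnb2/Cenpa cells, 75.9 CPM in Mki67/Top2a cells and 33.1 CPM in other cells. The replication-dependent H1 genes likewise stood at 186, 105 and 22.2 CPM. In Ccnb2/Cenpa cells these 2 families rested almost wholly on Hist1h2bc and Hist1h1c, which together had 413 CPM there. The H1 genes Hist1h1b and Hist1h1e went the other way, with log2 ratios of Ccnb2/Cenpa to Mki67/Top2a cells of -3.51 and -3.87. Replication-dependent H3 genes were close to undetected, with 11, 31 and 132 UMIs in the 3 classes, and H4 genes reached 26.5, 33.3 and 4.67 CPM. H3 was captured almost wholly as the variant H3f3a and H3f3b, and variant H3 took 48.3% of histone UMIs in Ccnb2/Cenpa cells, 39.5% in Mki67/Top2a cells and 68.2% in other cells.

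**Figure D1:**
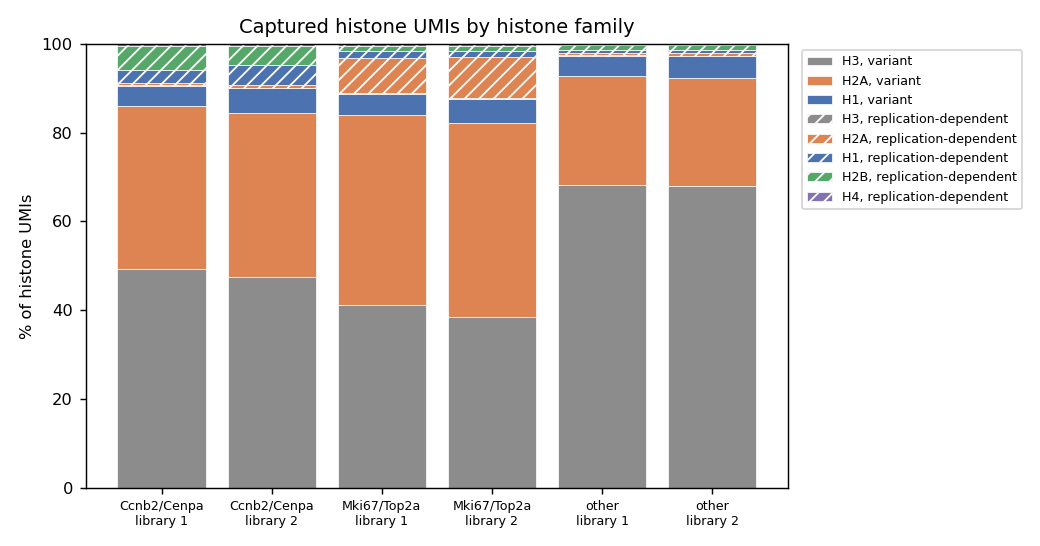
Share of captured histone UMIs (%) held by each histone family, as stacked bars for the Ccnb2/Cenpa, Mki67/Top2a and other cells of each library; plain fill marks variant genes and hatching replication-dependent genes. Replication-dependent H2A fills a visible band in Mki67/Top2a cells, and replication-dependent H2B and H1 do so in Ccnb2/Cenpa cells, with like bars in libraries 1 and 2.

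Because tail-less messages escape poly(A) priming, the 3′ ends of the members are shown first. The stem-loop was sought as GG, any 2 letters, CT, any letter, TT, any letter, AG, any 2 letters and CC, on the transcribed strand of GENCODE transcripts of GRCm38. It was found in 42 of the 67 replication-dependent members that the annotation holds and in 1 variant member, H2afx, against 0.361% of 58797 protein-coding transcripts. Of the replication-dependent members, 17 were annotated with at least 200 bases beyond it. The windows below hold the stem-loop of the 7 members with 10 CPM or more in a class in which it was found, each in the only exon and after the stop codon, that is in the 3′ UTR, with the matched letters in capitals.
Hist1h2ap, GRCm38 chr13:21833026-21833049, minus strand: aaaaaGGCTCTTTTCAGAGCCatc
Hist1h2ae, GRCm38 chr13:23570663-23570688, minus strand: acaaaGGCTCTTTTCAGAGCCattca
Hist1h4i, GRCm38 chr13:22040961-22040986, minus strand: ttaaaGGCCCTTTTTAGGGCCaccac
Hist1h1c, GRCm38 chr13:23739507-23739532, plus strand: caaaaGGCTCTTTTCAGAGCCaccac
H2afx, GRCm38 chr9:44335235-44335260, plus strand: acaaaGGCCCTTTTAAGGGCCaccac
Hist1h1e, GRCm38 chr13:23621777-23621802, minus strand: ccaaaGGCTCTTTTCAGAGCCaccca
Hist3h2a, GRCm38 chr11:58955167-58955192, plus strand: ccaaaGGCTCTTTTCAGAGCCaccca

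The matched stem-loop letters of Hist1h1c, Hist1h2ap, Hist1h2ae, Hist1h1e and Hist3h2a were the same, so the members did not differ in this element but in what is annotated after it. The transcript of Hist1h2ap ended 3 bases past the window's matched letters, whereas that of Hist1h2ae went on for 151 bases, Hist1h4i for 330, H2afx for 822, Hist1h1c for 840, Hist1h1e for 1153 and Hist3h2a for 1643. For Hist1h2bc and Hist1h1b the letters were not in the annotated transcripts of 1156 and 743 bases. Some members cannot be told apart from other genes by a 3′ read. All of the 50-base words of the Hist1h2ap end recur in other genes, among them Hist1h2ab and Hist1h2ac, all of those of Hist1h1e recur in Hist1h2be and Gm11398, which overlap it on the same strand, and 44.2% of those of Hist1h2ae recur, so counts of these 3 are uncertain between members. In all, 40 members shared at least 50% of such words. No word of Hist1h1c recurred, and 2.28% of those of Hist1h2bc did.

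Hist1h2ap was the member that set Mki67/Top2a cells apart. It had 4.06 CPM in library 1 and 5.11 CPM in library 2 in Ccnb2/Cenpa cells, 466 and 605 CPM in Mki67/Top2a cells, and 1.92 and 4.51 CPM in other cells. Mki67/Top2a cells were 170.3 times as high as other cells (interval 149 to 195), and Ccnb2/Cenpa cells differed little from other cells, with a log2 fold of 0.51 whose interval ran from -0.64 to 1.45. A UMI of it was found in 5.41% of Ccnb2/Cenpa cells, 48.8% of Mki67/Top2a cells and 3.56% of other cells, and after each cell was thinned to 7470 UMIs in 4.38%, 44.7% and 2.26%. Thinning left out the 11 Ccnb2/Cenpa cells, 9 Mki67/Top2a cells and 669 other cells with fewer UMIs.

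Hist1h1b and Hist1h2ae, a linker H1 and a core H2A, were also highest in Mki67/Top2a cells, at lower levels. Hist1h1b had 1.02 and 4.08 CPM in Ccnb2/Cenpa cells of libraries 1 and 2, 22.6 and 33.4 CPM in Mki67/Top2a cells, and 0.25 and 0.42 CPM in other cells. Hist1h2ae, named after its values were seen, had 1.02 and 0 CPM in Ccnb2/Cenpa cells, 33.9 and 22.1 CPM in Mki67/Top2a cells, and 0.33 and 0.30 CPM in other cells. Both stood apart in each library, with log2 folds of Mki67/Top2a over other cells of 6.43 and 6.42. In Ccnb2/Cenpa over other cells Hist1h1b had a log2 fold of 2.92 (1.18 to 4.31), which rested on 5 UMIs in Ccnb2/Cenpa cells. Hist1h1e, another linker H1, had 3.05 and 0 CPM in Ccnb2/Cenpa cells, 23.3 and 21.6 CPM in Mki67/Top2a cells and 2.07 and 1.98 CPM in other cells, a log2 fold of 3.46 in Mki67/Top2a cells.

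Within Mki67/Top2a cells, Hist1h2ap and Hist1h1b were higher in cells with more UMIs of S phase genes. Mki67/Top2a cells were split by UMIs of 12 S phase genes that include no histone, 130 cells with at least 3 such UMIs and 85 with fewer. Replication-dependent genes summed to 1061 CPM in the S-gene cells (981 in library 1 and 1113 in library 2) and 408 CPM in the remaining Mki67/Top2a cells (361 and 441), a log2 ratio of 1.38 (1.24 to 1.52). Hist1h2ap had 757 CPM in the S-gene cells and 149 CPM in the remaining ones, and Hist1h1b 39.5 and 9.08 CPM. Hist1h1c and Hist1h2bc went the other way, with 35.2 CPM in the S-gene cells against 77.6 CPM for Hist1h1c, and 57.9 against 80.0 CPM for Hist1h2bc, although for Hist1h2bc library 2 alone gave a log2 ratio of 0.02. The S-gene cells were deeper, with a median of 17138.5 UMIs against 13919, and thinned cells gave a log2 ratio of 1.14 for the sum. Immune markers summed to 206 CPM in the S-gene cells and 75.9 CPM in the remaining ones, and endothelial markers to 288 and 469 CPM. Erythroid genes differed most, at 5310 CPM in the S-gene cells and 807 CPM in the remaining ones. The part of these cell types was not tested. Without the members that share 3′ ends, the ratio of the sum was 0.02. Among other cells, the 749 with 3 S-gene UMIs or more had close to the same replication-dependent level, at 77.3 CPM against 82.4 CPM in the 5773 with fewer (log2 -0.09, interval -0.20 to 0.01). Endothelial markers went with that split, at 222 CPM in the S-gene cells and 67.8 CPM in the rest of the other cells. Erythroid genes went the other way, at 891 and 2779 CPM, and the part of either was not tested.

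Hist1h1c and Hist1h2bc had their highest class level in Ccnb2/Cenpa cells. Hist1h1c had 133 and 231 CPM in Ccnb2/Cenpa cells of libraries 1 and 2, 57.9 and 44.2 CPM in Mki67/Top2a cells, and 18.1 and 21.5 CPM in other cells. Hist1h2bc had 248 and 214 CPM, 62.9 and 67.2 CPM, and 32.0 CPM in other cells of each library. For both genes every value of Ccnb2/Cenpa cells lay above every value of the other classes. Over other cells the fold was 9.16 (8.15 to 10.3) for Hist1h1c and 7.21 (6.52 to 7.98) for Hist1h2bc, and over Mki67/Top2a cells 3.66 and 3.53. For Hist1h1c that last log2 ratio was 1.20 in library 1 and 2.38 in library 2.

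The pair was also found in more cells and in the same cells. A Hist1h1c UMI was present in 52.0% of Ccnb2/Cenpa cells, 34.9% of Mki67/Top2a cells and 18.0% of other cells, or 44.5%, 19.4% and 12.4% after thinning. For Hist1h2bc the shares were 64.2%, 40.5% and 26.3%, or 54.7%, 28.6% and 18.1% after thinning. Among Ccnb2/Cenpa cells, 69.5% of the cells with a Hist1h2bc UMI also had one of Hist1h1c, against 20.8% of the cells without. Among Mki67/Top2a cells these shares were 50.6% and 24.2%, and among other cells 24.5% and 15.7%; deeper cells are more likely to hold both, and that part was not tested.

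Hist1h4i, which encodes H4, was the one measured replication-dependent gene at a like level in both cell-cycle classes. It had 14.2 and 15.3 CPM in Ccnb2/Cenpa cells, 12.0 and 18.3 CPM in Mki67/Top2a cells, and 1.24 and 1.34 CPM in other cells. The log2 fold over other cells was 3.52 in Ccnb2/Cenpa cells and 3.62 in Mki67/Top2a cells, and the interval of the ratio between them ran from -0.80 to 0.57. Hist3h2a, a core H2A, differed least from other cells among the measured replication-dependent genes, with 15.2 and 26.5 CPM in Ccnb2/Cenpa cells, 11.3 and 8.46 CPM in Mki67/Top2a cells and 13.4 and 11.7 CPM in other cells. Hist2h2aa1, also a core H2A, stayed under 10 CPM throughout, at 2.04, 4.52 and 3.39 CPM in the 3 classes, and its end is shared with Gm20634.

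**Figure D2:**
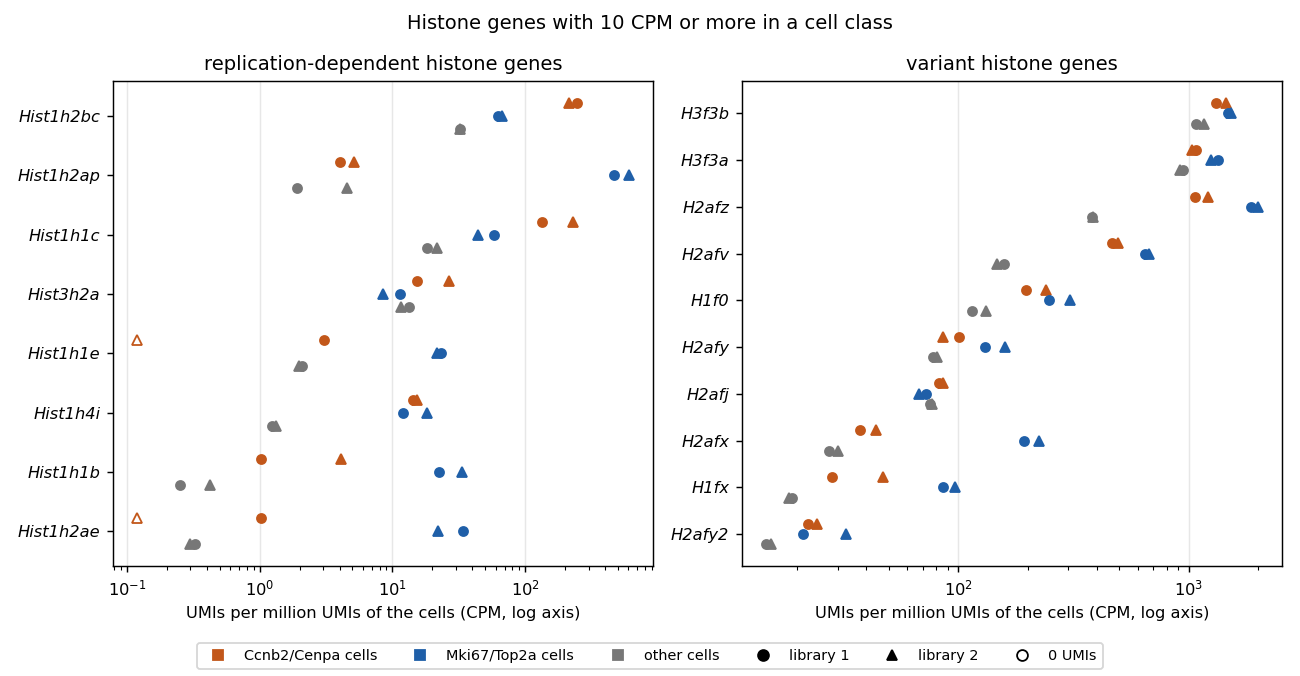
Level of each histone gene with 10 CPM or more in a class, on a log axis of CPM, with 1 point per class and library (circles, library 1; triangles, library 2; open, 0 UMIs, set at the left edge). Hist1h2bc and Hist1h1c are farthest right in Ccnb2/Cenpa cells, Hist1h2ap, Hist1h1b, Hist1h2ae, H2afx and H1fx in Mki67/Top2a cells, and H3f3a, H3f3b and H2afj lie close together in the 3 classes.

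Among variants, the H2A.Z genes were high in both cell-cycle classes. H2afz and H2afv encode the 2 forms of H2A.Z, a variant found at promoters. H2afz had 1063 and 1208 CPM in Ccnb2/Cenpa cells, 1850 and 1991 CPM in Mki67/Top2a cells, and 379 and 385 CPM in other cells. H2afv had 465 and 494 CPM, 644 and 669 CPM, and 158 and 147 CPM. For both genes the classes kept the same order in each library, and the log2 folds over other cells were 1.57 and 1.65 in Ccnb2/Cenpa cells and 2.34 and 2.11 in Mki67/Top2a cells.

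H2afx was nearer to the course of Hist1h2ap, and H1fx only partly so. H2afx encodes H2A.X, which is phosphorylated around DNA breaks, and had 37.6 and 43.9 CPM in Ccnb2/Cenpa cells, 193 and 224 CPM in Mki67/Top2a cells, and 27.4 and 30.2 CPM in other cells. Its log2 fold was 0.50 (0.16 to 0.82) in Ccnb2/Cenpa cells and 2.87 (2.75 to 2.99) in Mki67/Top2a cells, and it is the variant with the stem-loop. H1fx, a linker histone, had 28.4 and 47.0 CPM, 86.2 and 96.4 CPM, and 18.9 and 18.4 CPM. A H2afx UMI was found in 39.9% of Ccnb2/Cenpa cells, 75.3% of Mki67/Top2a cells and 28.5% of other cells, or 31.4%, 58.3% and 19.5% after thinning.

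The remaining variants differed less. H1f0, a linker histone associated with differentiated cells, had 196 and 240 CPM in Ccnb2/Cenpa cells, 247 and 306 CPM in Mki67/Top2a cells and 114 and 132 CPM in other cells. The H3.3 genes H3f3b and H3f3a had log2 folds over other cells of 0.30 and 0.18 in Ccnb2/Cenpa cells and 0.43 and 0.46 in Mki67/Top2a cells. The macroH2A genes H2afy and H2afy2 gave 0.23 and 0.64 in Ccnb2/Cenpa cells and 0.90 and 0.89 in Mki67/Top2a cells. H2afj, which encodes H2A.J, had 0.14 and -0.13, with intervals that spanned 0. Scaling by the trimmed mean of M values (TMM) moved all genes by a median of -0.20 in Ccnb2/Cenpa cells and -0.16 in Mki67/Top2a cells relative to other cells. Under it H3f3a stood at -0.02, H2afj at -0.06, H2afy at 0.03 and H3f3b at 0.10 in Ccnb2/Cenpa cells. No direction is given for these genes there.

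**Figure D3:**
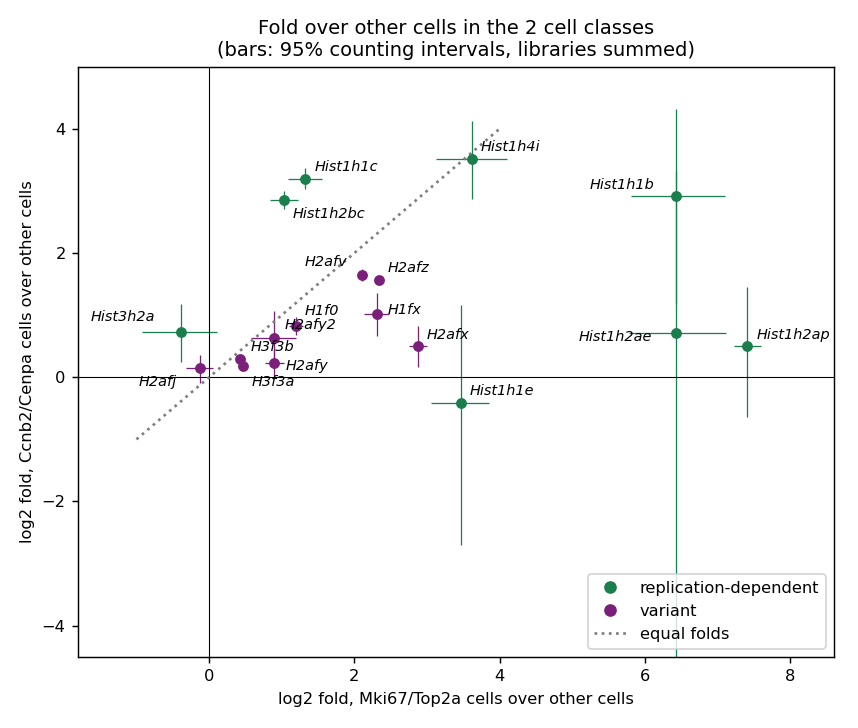
Log2 fold over other cells in Mki67/Top2a cells (x axis) and in Ccnb2/Cenpa cells (y axis) for the 18 histone genes with 10 CPM or more in a class, libraries summed, with 95% counting intervals; the lower interval of Hist1h2ae leaves the plot. Hist1h1c and Hist1h2bc lie above the line of equal folds, Hist1h4i beside it, and Hist1h2ap, Hist1h1b, Hist1h2ae, Hist1h1e and H2afx far below it.

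Counts past 2-fold were read against all genes. A gene was measured in a comparison if it reached 10 CPM in either class, and counted if it was past 2-fold with libraries summed and in each library alone. In Ccnb2/Cenpa over other cells 1.89% of 7290 genes were past 2-fold higher, and the members past it were 3 of 4 measured replication-dependent genes, Hist1h1c, Hist1h2bc and Hist1h4i, and 2 of 10 measured variants, H2afv and H2afz. Of those 4 replication-dependent genes Hist1h4i was measured only through Ccnb2/Cenpa cells and so had to be higher there, though not necessarily past 2-fold. None was past 2-fold lower, where 0.151% of all genes were, or 2.04% in either direction. In Mki67/Top2a over other cells the share of 7444 genes was 6.52%, and the members were 6 of 8 replication-dependent genes, Hist1h1b, Hist1h1c, Hist1h1e, Hist1h2ae, Hist1h2ap and Hist1h4i, and 5 of 10 variants, H1f0, H1fx, H2afv, H2afx and H2afz. Of those 8 replication-dependent genes, 5 were measured only through their level in Mki67/Top2a cells. They so had to be higher there, though not necessarily past 2-fold. None was past 2-fold lower there, against 0.0403% of all genes, or 6.56% in either direction.

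Between the cell-cycle classes the members parted in both directions. In Ccnb2/Cenpa over Mki67/Top2a cells 0.584% of 7708 genes were past 2-fold higher and 4.24% lower, 4.83% in all. Of 8 measured replication-dependent genes 2 were higher, Hist1h1c and Hist1h2bc, and 4 were lower, Hist1h1b, Hist1h1e, Hist1h2ae and Hist1h2ap. Those 4 lower genes were measured only through Mki67/Top2a cells and so had to be lower, though not necessarily past 2-fold. Of 10 measured variants 2 were lower, H1fx and H2afx. The median log2 fold over other cells of the 10 measured variants, all of which reached 10 CPM in other cells too, was 0.54 in Ccnb2/Cenpa cells and 1.04 in Mki67/Top2a cells, against 0.15 and 0.11 over all measured genes, on a scale with 1 CPM added. With TMM scaling Hist1h1c and H1f0 were no longer past 2-fold in each library alone in Mki67/Top2a over other cells. With libraries summed their log2 folds were still 1.17 and 1.04.

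The UMIs of the 4 class genes were also read as a graded scale, in bins of at least 20 cells. Among cells with no Mki67 or Top2a UMI, Hist1h1c had 19.4 CPM in cells with no Ccnb2 or Cenpa UMI, 18.6 CPM with 1, 122 CPM with 2 to 4 and 281 CPM with 5 or more. Hist1h2bc had 31.5, 34.0, 124 and 468 CPM over the same bins, and H2afz 378, 384, 663 and 1677 CPM. Over these bins Hist1h2ap stayed between 3.30 and 4.57 CPM and the S phase list between 171 and 187 CPM. The list of G2 and mitosis rose, at 30.2, 31.0, 57.7 and 263 CPM. Hist1h1c, Hist1h2bc and H2afz thus stood high in cells without captured Mki67 or Top2a and without a raised S phase list. The list of G2 and mitosis was raised in those cells, and cells with 1 UMI were like cells with 0.

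With more Mki67 or Top2a UMIs the levels depended on both gene pairs. In the 49 cells with 2 to 4 UMIs of Mki67 or Top2a and none of Ccnb2 or Cenpa, the S phase list stood at 802 CPM while Hist1h2ap had 85.1 CPM and Hist1h1c 13.2 CPM. In the 30 cells with 5 or more and 2 to 4 UMIs, Hist1h2ap reached 1374 CPM and the S phase list 1389 CPM. Hist1h2bc had 122 CPM there, close to its level in cells with no Mki67 or Top2a UMI and 2 to 4 of Ccnb2 or Cenpa, and Hist1h1c 62.3 CPM. In the 71 cells with 5 or more of both, Hist1h2ap had 602 CPM, the S phase list 473 CPM, the list of G2 and mitosis 2842 CPM, Hist1h1c 34.3 CPM and Hist1h2bc 53.7 CPM. Cells with 5 or more Ccnb2 or Cenpa UMIs and 2 to 4 of Mki67 or Top2a, 22 in all, had 240 CPM of Hist1h1c, 237 CPM of Hist1h2bc and 12.5 CPM of Hist1h2ap, like cells with few Mki67 or Top2a UMIs. H2afx was also highest in the 2 bins with 5 or more Mki67 or Top2a UMIs, at 320 and 327 CPM. It did not fall between those bins as Hist1h2ap did, and did not pass 87.2 CPM in the other bins.

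**Figure D4:**
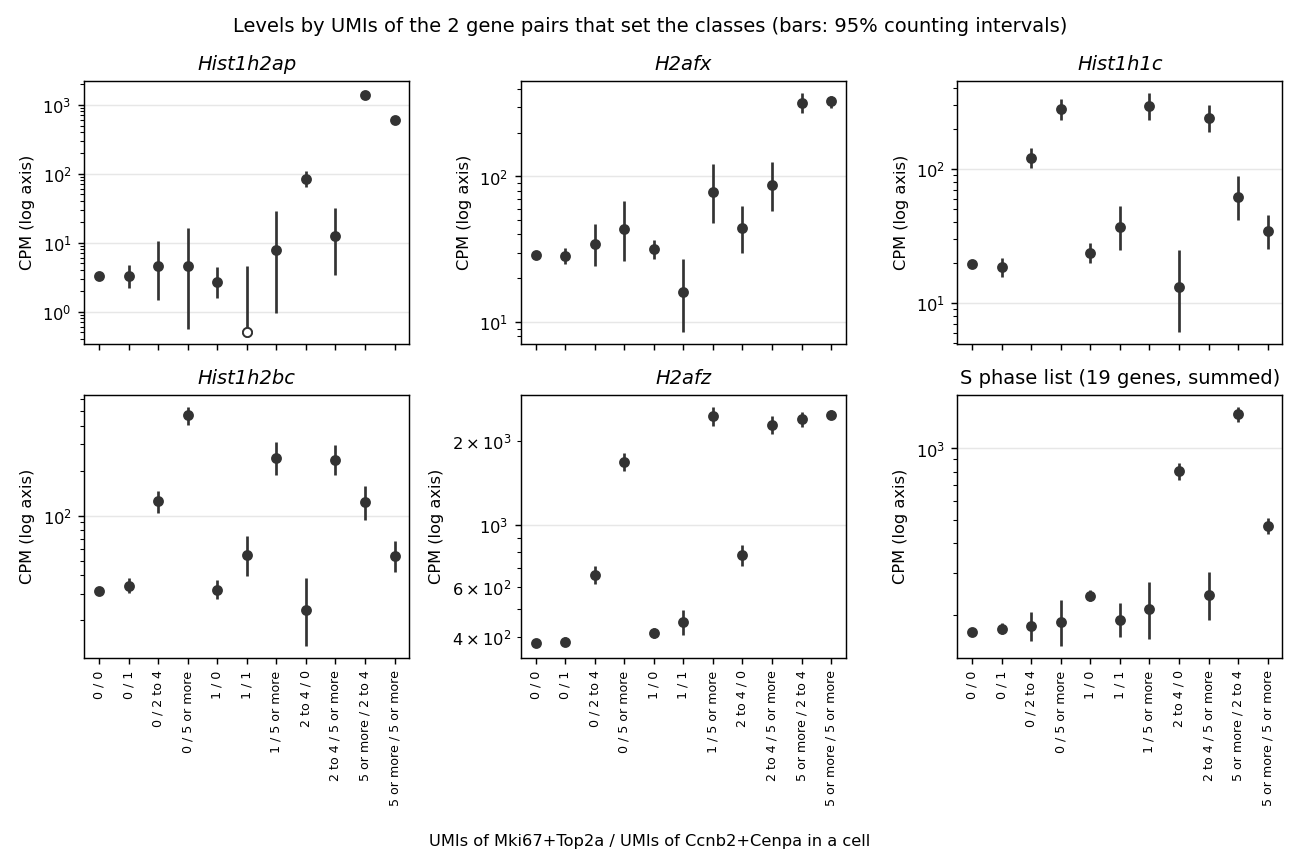
CPM on a log axis in cells grouped by UMIs of Mki67 plus Top2a and of Ccnb2 plus Cenpa (x axis, low to high), with 95% counting intervals; an open point marks a bin with 0 UMIs, set at 0.5. Hist1h2ap, H2afx and the S phase list reach their top with 5 or more Mki67 or Top2a UMIs, whereas Hist1h1c and Hist1h2bc reach 281 and 468 CPM in cells with none of them and 5 or more of Ccnb2 or Cenpa.

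Hist1h1c and Hist1h2bc also led the replication-dependent genes of cells outside both classes, where the pair held 63.5% of those UMIs. Hist3h2a was seen there too, with a UMI in 13.7% of the other cells. Of the 6522 other cells, 4055 held no UMI of the pair, 1574 held 1, 552 held 2 and 341 held 3 or more. The S phase list summed to 181, 171, 166 and 174 CPM over these groups and the list of G2 and mitosis to 31.6, 29.0, 29.1 and 32.3 CPM, while the median depth was 12080, 12821.5, 13031 and 13402 UMIs. Both lists varied little over the groups. Mki67 plus Top2a summed to 6.61, 4.92, 6.98 and 9.24 CPM and Ccnb2 plus Cenpa to 8.66, 7.40, 7.94 and 11.8 CPM, highest in cells with 3 or more UMIs, although the class rule caps each pair at 1 UMI per other cell. Genes of the precursor states varied more than the lists of S phase and of G2 and mitosis. Lpl, Col4a1, Col4a2 and Col15a1, of committed precursors, summed to 1230, 1232, 1422 and 1616 CPM over the groups, and Dpp4, Pi16, Wnt2 and Anxa3, of the Dpp4-positive progenitor state, to 2314, 2289, 2102 and 1818 CPM. The committed genes differed more in library 2, with 1794 CPM in cells with 3 or more UMIs and 1190 CPM in cells with none, than in library 1, with 1424 and 1271 CPM. A pool of all UMIs of the kept cells held 24.8 CPM of Hist1h1c and 25.9 CPM of Hist1h2ap. Other cells held 19.8 and 3.22 CPM. The pool includes the other cells themselves and the Mki67/Top2a cells, which held most Hist1h2ap UMIs. The part of free RNA was not tested.

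**Figure D5:**
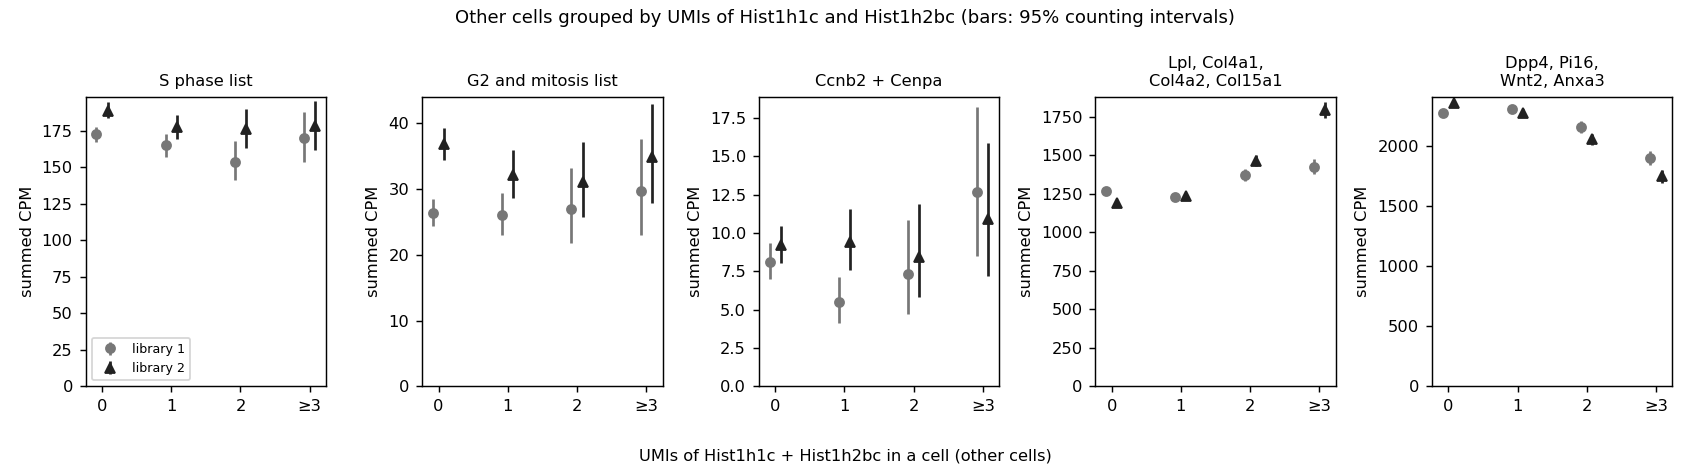
Summed CPM of gene lists in other cells grouped by UMIs of Hist1h1c plus Hist1h2bc (0, 1, 2, 3 or more), by library with 95% counting intervals. The S phase list lies at 174 CPM in cells with 3 or more UMIs against 181 CPM with none, Lpl, Col4a1, Col4a2 and Col15a1 together reach 1616 CPM in cells with 3 or more UMIs against 1230 CPM with none, and Dpp4, Pi16, Wnt2 and Anxa3 together reach 1818 against 2314 CPM.

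Genes that process histone messages or deposit histones were taken as a list of 40 found genes. In Mki67/Top2a over other cells 11 of the 33 measured were past 2-fold higher and none lower, where 6.52% of all genes were higher. In Ccnb2/Cenpa over other cells none of 30 was past 2-fold, where 1.89% of all genes were higher, a share not far from 0 of 30. Slbp, which binds the stem-loop, had 52.9 CPM in Ccnb2/Cenpa cells, 126 CPM in Mki67/Top2a cells and 46.4 CPM in other cells. Asf1b, a chaperone of H3 and H4, had 2.04, 46.3 and 0.84 CPM in the 3 classes, and Chaf1b, a subunit of the assembly factor CAF-1, 2.55, 26.3 and 2.22 CPM. The others with the highest folds in Mki67/Top2a cells were Chaf1a, Mcm2, Hjurp and Anp32e, at log2 folds of 2.27, 2.15, 1.82 and 1.74, and 8 of the 33 were measured only through that class. These folds went with those of Hist1h2ap in Mki67/Top2a cells, while Slbp differed little from other cells in the class where Hist1h1c and Hist1h2bc were highest, with a log2 fold of 0.19 (-0.11 to 0.47).

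Hira and Daxx, chaperones of H3.3, had 6.11 and 11.7 CPM in Ccnb2/Cenpa cells, 10.4 and 9.03 CPM in Mki67/Top2a cells and 6.51 and 7.52 CPM in other cells. Anp32e, which removes H2A.Z, had 67.2, 123 and 36.9 CPM, the highest fold in Ccnb2/Cenpa cells, a log2 of 0.86, among genes of the list with 10 CPM or more in either class. It was followed there by Ruvbl2, Cabin1, Ncbp1, Daxx and Srrt, from 0.82 to 0.57. At the low end were Lsm10, Cabin1, Vps72 and Cpsf3 in Mki67/Top2a cells, from -0.19 to -0.07, and Hjurp, Ubn1, Vps72 and Atrx in Ccnb2/Cenpa cells, from -0.22 to -0.04. The 7 genes of a quiescence and exit list, such as Cdkn1b and Btg1, stayed within 2-fold and summed to 1461, 1400 and 1447 CPM in the 3 classes.

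Promoters from 250 bases before to 50 after the start (RefSeq table, GRCm38.p6) were found for 74 members. Motifs were sought on both strands as letters: TATAAA was in 57.4% of the 61 replication-dependent promoters, 7.14% of the 14 variant promoters and 13.6% of 32851 promoters in all. The figures for CCAAT were 85.2%, 64.3% and 37.4%, for the octamer ATTTGCAT 21.3%, 7.14% and 1.74%, for TTTGAA, the core of a cell-cycle homology element, 44.3%, 21.4% and 17.9%, and for TTTNNCGC, E2F-like letters, 29.5%, 0% and 5.17%. Neighbouring histone genes can share a bidirectional promoter, so these windows are not independent. The windows of 4 genes of unlike course are printed, with each match on either strand in capitals, none of them overlapping another.
Hist1h2ap, GRCm38.p6 chr13:21833426-21833725, minus strand: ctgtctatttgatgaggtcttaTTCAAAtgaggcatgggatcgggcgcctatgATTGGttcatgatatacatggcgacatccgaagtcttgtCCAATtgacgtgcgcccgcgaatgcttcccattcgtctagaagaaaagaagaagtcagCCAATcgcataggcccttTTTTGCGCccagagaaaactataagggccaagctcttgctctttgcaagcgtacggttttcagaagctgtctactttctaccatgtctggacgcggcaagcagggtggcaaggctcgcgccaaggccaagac
Hist1h1b, GRCm38.p6 chr13:21780576-21780875, minus strand: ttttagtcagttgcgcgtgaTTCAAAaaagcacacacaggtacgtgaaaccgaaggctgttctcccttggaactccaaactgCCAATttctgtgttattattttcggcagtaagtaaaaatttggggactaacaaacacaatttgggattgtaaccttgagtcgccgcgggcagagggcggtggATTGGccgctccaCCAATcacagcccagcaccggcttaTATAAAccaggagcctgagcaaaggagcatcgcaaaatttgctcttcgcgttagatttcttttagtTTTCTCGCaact
Hist1h1c, GRCm38.p6 chr13:23738557-23738856, plus strand: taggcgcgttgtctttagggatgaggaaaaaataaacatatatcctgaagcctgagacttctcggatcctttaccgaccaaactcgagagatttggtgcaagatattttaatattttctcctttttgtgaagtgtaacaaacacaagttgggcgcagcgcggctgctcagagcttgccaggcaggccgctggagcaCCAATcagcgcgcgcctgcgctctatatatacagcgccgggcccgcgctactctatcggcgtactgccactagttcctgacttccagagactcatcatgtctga
H2afz, GRCm38.p6 chr3:137864237-137864536, plus strand: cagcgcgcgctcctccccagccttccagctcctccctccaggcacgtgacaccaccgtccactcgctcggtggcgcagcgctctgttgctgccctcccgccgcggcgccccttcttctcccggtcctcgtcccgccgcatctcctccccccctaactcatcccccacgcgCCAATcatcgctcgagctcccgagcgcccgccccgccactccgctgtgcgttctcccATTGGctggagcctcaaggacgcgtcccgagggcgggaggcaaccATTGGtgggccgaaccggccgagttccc

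The windows of Hist1h2ap and Hist1h1b, both high in Mki67/Top2a cells, each held 3 CCAAT, 1 TTTGAA and 1 TTTNNCGC match, and that of Hist1h1b also 1 TATAAA match. The window of Hist1h1c, highest in Ccnb2/Cenpa cells, held 1 CCAAT match and no other, and that of H2afz 3 CCAAT matches. A match is only a run of letters, and windows without one say nothing of the factor.

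The libraries differed in a few members. In other cells replication-dependent genes summed to 85.4 CPM in library 2 and 77.9 CPM in library 1, a log2 ratio of 0.13 (0.06 to 0.20), and variants to 2961 and 2888 CPM, 0.04 (0.02 to 0.05). Hist1h2ap had 4.51 CPM in library 2 and 1.92 CPM in library 1, a log2 ratio of 1.23 (0.84 to 1.64), and Hist2h2aa1 had 4.76 and 1.99 CPM, 1.26 (0.87 to 1.65). Both end in sequence shared with other H2A genes. Without members that share 3′ ends the ratio of the replication-dependent sum was 0.04. Mki67/Top2a cells, a source of Hist1h2ap, made up 3.58% of the cells of library 2 and 2.63% of those of library 1, and the part of free RNA in the level in other cells was not tested. With 1 library per condition these ratios have no replicate error beside them.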

How the data were processed

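Flow-sorted precursors were captured with 3′ version 2 droplet chemistry, per the labels. The authors deposited whole-number UMI counts per gene and barcode, not normalized, for both libraries in 1 matrix. Cell Ranger (no version given) and Seurat 3.0.1 with the mm10 build are named in the submitters' processing notes; the annotation and any barcode filter beyond that are not given in the sources used here.

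Barcodes with at least 500 genes and at most 10% mitochondrial counts were kept, 6885 of 6905, 3307 in library 1 and 3578 in library 2. Deposited counts summed to 42092816 and 43491307 UMIs per library, with medians of 12962 and 12112.5 per kept cell. Doublets were not removed, so cells of very high depth may hold several cells; an alternative drops the top 5% by depth. Histone genes held 275406 UMIs of the kept cells.

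Counts were summed per class and library with numpy 2.4.6, scipy 1.17.1 and pandas 2.3.3, divided by the class total, and compared as ratios. No test was run, because the labels give 1 library per condition and tie neither to a diet. TMM scaling used edgeR 4.0.16. The ratio code was tested on simulated data. Genes were named by rule: Hist1h1c and Hist1h2bc, the 8 replication-dependent and 8 variant members with the highest CPM over kept cells, members past 2-fold in both libraries with at least 50 CPM in a class, and for the processing and chaperone list the 6 highest and 4 lowest folds with 6 genes by name. Alternatives were other class thresholds, thinning, depth limits, TMM, other CPM minimums, single libraries, and leaving out members with shared 3′ ends or the Hist1h1c and Hist1h2bc pair. Members and lists were chosen with earlier results of these data known.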

Additional observations from a re-analysis of the deposited data

How the results depend on the processing

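Of the alternatives to each reported value, 275 stayed within counting error or 1.5 times the count, 88 moved and 1 reversed; the cause was not tested beyond what each setting leaves out. Class thresholds are given as 1 and then 3 UMIs. For the replication-dependent sum, Ccnb2/Cenpa over other cells was 0.86 and 3.09 on the log2 scale, 2.81 without the top 5% by depth, 2.95 thinned, 2.38 with TMM, 2.73 without shared 3′ ends and 1.34 without Hist1h1c and Hist1h2bc. Mki67/Top2a over other cells was 2.15 and 3.63, and under the same settings 3.15, 3.55, 3.20, 1.66 and 4.60. Ccnb2/Cenpa over Mki67/Top2a cells was -1.29 and -0.54, -0.34 without the top 5%, -0.61 thinned, -3.26 without the pair and, in the one reversal, 1.07 without shared 3′ ends. S-gene over remaining Mki67/Top2a cells was 1.99 at 1 UMI, 1.14 thinned, 0.024 without shared 3′ ends and 1.95 without the pair; among other cells it was 0.20 thinned and -0.51 with 5 S-gene UMIs. Library 2 over library 1 was 0.041 without shared 3′ ends.

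For the variant sum, Ccnb2/Cenpa over other cells was 0.12 and 0.97, 0.74 without the top 5%, 0.87 thinned, 0.43 with TMM and 0.60 to 0.67 in single libraries. Mki67/Top2a over other cells was 0.52 and 1.23, 1.25 thinned and 0.93 with TMM. Ccnb2/Cenpa over Mki67/Top2a cells was -0.39 and -0.26, -0.35 without the top 5%, -0.37 thinned and -0.50 with TMM. A setting chosen after seeing the data, with no Mki67 or Top2a UMI in the 114 remaining Ccnb2/Cenpa cells and none of the 4 genes in 5396 other cells, gave 0.54 over other cells and -0.55 over Mki67/Top2a cells. Hist1h1c, Ccnb2/Cenpa over Mki67/Top2a cells, was 0.019 and 2.61, 2.33 thinned and 1.20 to 2.38 in single libraries; Hist1h2bc was 0.25 and 2.41, and 2.19 thinned.

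Members past 2-fold in Ccnb2/Cenpa over other cells numbered 0 at 1 UMI, 8 thinned and 23 with no CPM minimum; in Mki67/Top2a over other cells 6 at 1 UMI, 6 at 50 CPM and 41 with no minimum; and in Ccnb2/Cenpa over Mki67/Top2a cells 4, 5 and 26. The chaperone and processing list gave 2 at 3 UMIs, 3 thinned, 1 in each single library and 1 with no minimum in Ccnb2/Cenpa over other cells, and 3 at 1 UMI and 4 at 50 CPM in Mki67/Top2a over other cells. The planned committed-side rule left 8 cells with 28874 UMIs; its replication-dependent ratio of -0.36 had an interval of -3.41 to 1.51 and was 0.51 in library 2 alone, with library 1 at 0 UMIs. Its variant ratio was 0.08 (-0.24 to 0.39), -0.19 to 0.30 in single libraries and -0.62 with TMM, so no direction is given. No paired analysis was possible because no result comes from a test and no library is tied to a condition; class ratios within each library are given in its place. Members with few UMIs limit what can be read: 52 of 85 had 1 to 291 in all kept cells and 15 had none.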

Other observations

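Along the precursor axis, levels of some histone genes differed between the ends. Sides were set after seeing the data: at least 10 UMIs of the 8 marker genes, of which at least 90% came from Lpl, Col4a1, Col4a2 and Col15a1 (144 committed-side cells) or from Dpp4, Pi16, Wnt2 and Anxa3 (1096 Dpp4-side cells). Median depth was 10031 UMIs on the committed side and 13389.5 on the Dpp4 side. Replication-dependent genes summed to 111 CPM on the committed side and 70.7 CPM on the Dpp4 side. The log2 ratio was 0.65 (0.39 to 0.90), with 0.87 (0.54 to 1.19) in library 2 and 0.33 (-0.10 to 0.73) in library 1. With libraries summed, this difference came from Hist1h1c and Hist1h2bc. Hist1h2ap had 5.14 and 4.02 CPM and Hist3h2a 10.3 and 12.2 CPM, with ratio intervals that spanned 0. Variants summed to 3436 and 2709 CPM, a log2 ratio of 0.34. Hist1h2bc had 48.5 CPM on the committed side and 23.6 CPM on the Dpp4 side, with log2 ratios of 1.31 in library 2 and 0.77 in library 1. Hist1h1c had 33.8 and 16.4 CPM, but the difference came from library 2, where it had 49.2 CPM on the committed side and 17.4 CPM on the Dpp4 side, against 14.8 and 15.3 CPM in library 1. H3f3b, one of the H3.3 genes, had 1433 CPM on the committed side and 957 CPM on the Dpp4 side, and H2afy, a macroH2A gene, 58.8 and 86.5 CPM. These are cells at the ends of a range, not cell types, and no test was made.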
